A study of Mus musculus with 20 samples.

Results

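The cholesterol synthesis genes described here are Hmgcs1, Idi1, Fdft1, Sqle, Lss, Cyp51 and Dhcr7, each an enzyme on the route from acetyl-CoA to cholesterol. They were chosen by symbol and make up 7 of the 47729 genes counted in the deposited files. Reads of mRNA were counted in the cortex and the hippocampus of 5 WT and 5 Ube3aOE pups at postnatal day 7, on the C57Bl/6J strain, which gives 4 groups of 5 libraries. Ube3aOE mice carry extra full-length Ube3a, a ubiquitin ligase gene, on a bacterial artificial chromosome transgene, so the added copies sit outside the normal locus, and the study's text calls the sequenced animals its Ube3a+2 model, which bears a pair of added copies. The work after the first tests of the transgene centred on line E, and the labels of these libraries name no line. WT mice carry no transgene, both tissues of a mouse bear its number (WT mice 1 to 5, Ube3aOE mice 6 to 10), and the labels name no treatment.

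Cholesterol does not pass from blood into the brain in useful amounts, so neurons and glia make their own, and the demand is high in the first weeks of life when membranes, synapses and myelin are laid down. In the mevalonate pathway, acetyl units are built into isoprenoids, which are joined into squalene, closed into the sterol lanosterol and trimmed to cholesterol. The genes of this route are classic targets of the sterol-sensing factor SREBP-2, which Scap carries to the Golgi for cleavage when sterols run low and which Insig proteins hold back when sterols are plentiful.

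The genes lie on different chromosomes of GRCm38 except for a pair on chromosome 13. Hmgcs1 (ENSMUSG00000093930, chr13:119690379-119708260, plus strand) encodes the cytosolic synthase that makes HMG-CoA at the start of the route. Idi1 (ENSMUSG00000058258, chr13:8885501-8892451, plus strand) encodes the isomerase that interconverts the isoprenoid building blocks. Fdft1 (ENSMUSG00000021273, chr14:63145150-63179578, minus strand) encodes squalene synthase, the step that commits isoprenoids to sterols, and Sqle (ENSMUSG00000022351, chr15:59315077-59331192, plus strand) encodes squalene epoxidase. Lss (ENSMUSG00000033105, chr10:76531588-76557138, plus strand) encodes lanosterol synthase, which closes the rings. Cyp51 (ENSMUSG00000001467, chr5:4081145-4104746, minus strand) encodes the demethylase that acts on lanosterol. Dhcr7 (ENSMUSG00000058454, chr7:143823145-143848410, plus strand) encodes the reductase of the closing step of a branch that ends in cholesterol.

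The stretches before the transcription starts are shown for reference. Whether they bear on the tissue difference described further on was not tested. RefSeq promoter entries for GRCm38.p6 matched 5 of the 7 genes, and Fdft1 and Sqle had none. Each line below gives the 250 bases before the RefSeq start, 5′ to 3′ on the gene's own strand, with matches to any of 3 motifs in capitals. The windows are chr13:119690101-119690350 for Hmgcs1, chr13:8885356-8885605 for Idi1, chr10:76531355-76531604 for Lss, chr5:4104698-4104947 for Cyp51, and chr7:143822917-143823166 for Dhcr7. Of the 3 starts listed for Dhcr7, the one at the start of its main GENCODE transcript was taken.
Hmgcs1: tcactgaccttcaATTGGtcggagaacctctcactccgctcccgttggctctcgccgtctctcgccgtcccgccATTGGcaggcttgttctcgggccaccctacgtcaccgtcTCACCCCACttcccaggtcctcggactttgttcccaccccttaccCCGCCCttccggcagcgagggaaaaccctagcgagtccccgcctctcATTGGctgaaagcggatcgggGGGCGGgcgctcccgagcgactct
Idi1: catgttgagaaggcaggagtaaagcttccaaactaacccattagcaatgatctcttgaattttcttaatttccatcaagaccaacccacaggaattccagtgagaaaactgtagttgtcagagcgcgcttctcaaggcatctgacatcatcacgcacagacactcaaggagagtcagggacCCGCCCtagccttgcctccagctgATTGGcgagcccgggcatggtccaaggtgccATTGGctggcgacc
Lss: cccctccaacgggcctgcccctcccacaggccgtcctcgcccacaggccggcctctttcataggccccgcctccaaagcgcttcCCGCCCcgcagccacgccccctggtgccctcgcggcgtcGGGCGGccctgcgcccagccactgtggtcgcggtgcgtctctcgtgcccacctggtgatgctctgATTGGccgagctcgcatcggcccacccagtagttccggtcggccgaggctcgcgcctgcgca
Cyp51: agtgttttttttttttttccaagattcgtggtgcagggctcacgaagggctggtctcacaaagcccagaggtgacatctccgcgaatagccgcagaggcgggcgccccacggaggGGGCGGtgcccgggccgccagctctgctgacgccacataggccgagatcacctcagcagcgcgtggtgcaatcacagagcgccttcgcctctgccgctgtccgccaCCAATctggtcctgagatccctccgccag
Dhcr7: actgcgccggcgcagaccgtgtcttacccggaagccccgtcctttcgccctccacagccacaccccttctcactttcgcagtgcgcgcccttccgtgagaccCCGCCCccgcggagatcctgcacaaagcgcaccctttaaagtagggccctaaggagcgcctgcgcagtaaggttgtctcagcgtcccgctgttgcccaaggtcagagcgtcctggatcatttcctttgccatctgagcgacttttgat

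The motifs were searched on both strands: CCAAT, the box bound by NF-Y, TCACNCCAC, a form of the sterol regulatory element, and GGGCGG, the GC box bound by Sp1-type factors. None of these matches overlapped another. CCAAT matched 3 times in the Hmgcs1 window, 2 times in that of Idi1, and once each in those of Lss and Cyp51, and had no match in that of Dhcr7. Among 32851 promoter windows of the same length, 33.9% held at least 1 CCAAT match and 10.1% held at least 2. This form of the sterol element matched in the Hmgcs1 window alone, at 137 bases before the start, against 1.05% of all windows. Other forms of the element were not searched for. GC boxes were present in all 5 windows, against 32.7% of all windows. The windows of Idi1 and Cyp51 run into their GENCODE transcripts, which start 105 and 49 bases before the RefSeq starts. The Idi1 matches, at 69, 45 and 14 bases before the RefSeq start, and the CCAAT match of Cyp51, at 29, thus lie inside the GENCODE transcripts and not before them. A match is a run of letters and not a measured binding site.

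Library totals on genes ranged from 14191093 to 16752326 (median 16295195). The transgene was seen in every Ube3aOE library: Ube3a was higher by 1.31 on the log2 scale in cortex (SE 0.11, adjusted p = 0.000822) and by 1.32 in hippocampus (SE 0.11, adjusted p = 0.000441), with no overlap between groups. The cortex library of WT mouse 2 stood apart, with the lowest share of reads on genes (69.7%) and the highest share not aligned (8.66%). In hippocampus, the summed markers of choroid plexus reached 1935 CPM in Ube3aOE mouse 7 and 342 CPM in Ube3aOE mouse 9, against 6.91 to 31.7 CPM in the other 8. The summed thalamus markers reached 676 CPM in Ube3aOE mouse 10, 349 CPM in Ube3aOE mouse 7 and 273 CPM in WT mouse 4, against 21.4 to 78.8 CPM in the other 7. Striatum markers stood at 316 CPM in Ube3aOE mouse 9. Sex-linked counts of 2 mice went against the labelled sex, where a mouse was counted if either of its libraries did so. Cortex markers (Tbr1 and Rorb) summed to 127 to 194 CPM in cortex and 52.7 to 90.6 CPM in hippocampus. Hippocampus markers (Prox1, Wfs1 and Lct) summed to 134 to 273 CPM in hippocampus and 35.5 to 99.9 CPM in cortex, so the tissue labels matched the counts. In cortex they were 99.9 CPM in Ube3aOE mouse 8 and 89.1 CPM in Ube3aOE mouse 9, against 51.2 CPM or less in the other cortex libraries. The cortex library of mouse 8 also had the lowest sum of cortex markers (127 CPM).

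All 7 genes were expressed in every library and passed the filter on low counts in each comparison. Counts scaled to a common library size by TMM factors (CPM) were divided by the length of the main transcript to compare levels between genes. On this per-kilobase scale Hmgcs1 stood highest, at 275 ± 39.1 CPM per kb (SD, n = 20), and Sqle followed at 90.7 ± 6.72 CPM per kb. Fdft1 (44.1 ± 6.81), Dhcr7 (39.1 ± 1.53) and Cyp51 (38.1 ± 2.02 CPM per kb) came next. These SDs pool both tissues, and the order of the 3 depended on the tissue. In WT cortex Fdft1 was at 50.7 ± 2.04, Dhcr7 at 38.3 ± 1.02 and Cyp51 at 39.1 ± 1.27 CPM per kb. In WT hippocampus they were at 37.7 ± 3.38, 39.7 ± 1.81 and 36.1 ± 1.95 CPM per kb. Lss was at 18.3 ± 2.59 CPM per kb and Idi1 lowest at 2.63 ± 0.39 CPM per kb. The lowest and the highest of these levels thus belonged to enzymes near the start of the route.

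Idi1 rested on 100 to 163 counts in a library, against 1142 or more for each of the other members. Its level is uncertain, because 17.7% of the distinct 50-base stretches of its transcripts also occur in genes elsewhere, most of them in the pseudogene Gm13502, and reads placed in several positions were not counted on genes. For Fdft1 the corresponding share was 9.38%, from the pseudogene Gm6781, and for the others it was 1.57% or less. Apart from these shares, 5 members overlap a gene on the opposite strand. Fdft1 shares 774 exonic bases with Ctsb (18.3% of its exonic length), and Cyp51 shares 166 with Akap9 (3.76%). Hmgcs1 shares 557 with Gm48342 (12.1%), Idi1 323 with Gm48574 (9.22%) and Lss 381 with 4930483K19Rik (3.53%). Gm48342 and Gm48574 were not among the counted genes, and 4930483K19Rik had at most 1 count in a library. The libraries kept strand, but the strand setting of the counting is not given in the sources used here. Between tissues, Ctsb moved opposite to Fdft1 (log2 fold change 0.10, hippocampus over cortex), and Akap9 fell by 0.77 on the log2 scale.

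The tissues differed in this pathway. Of the 7 genes, 6, all but Dhcr7, were lower in hippocampus than in cortex (edgeR quasi-likelihood test across all genes, adjusted p under 0.05), and none was higher. Of all 15661 genes tested, 25.6% were called lower in hippocampus and 25.3% higher, so calls were common in this comparison. The median log2 fold change was -0.27 over the 7 genes and -0.01 over all genes. In bulk tissue, fewer cells of a type and less RNA per cell cannot be told apart.

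Hmgcs1 measured 1046, 1015, 1106, 1125 and 1071 CPM in the cortex of WT mice 1 to 5, and 1027, 1163, 985, 1056 and 1097 CPM in that of Ube3aOE mice 6 to 10. In hippocampus it measured 819, 904, 903, 735 and 777 CPM in WT and 768, 847, 939.7, 870.0 and 771 CPM in Ube3aOE. Every hippocampus library lay below every cortex library. The log2 fold change was -0.36 (SE 0.05, 95% interval -0.46 to -0.26, adjusted p = 2.30e-06), a change of -22.0%.

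Fdft1, the squalene synthase gene, showed the largest tissue difference of the 7. Its cortex values were 176, 190.2, 192, 195 and 184 CPM in WT and 187, 189, 182, 177 and 187 CPM in Ube3aOE. Its hippocampus values were 131, 155, 151, 127 and 133 CPM in WT and 132, 145, 149.8, 151 and 126 CPM in Ube3aOE. Again the tissues did not overlap, which held for 3.74% of all genes in this direction. The log2 fold change was -0.41 (SE 0.04, 95% interval -0.50 to -0.32, adjusted p = 1.32e-07), a change of -24.7%.

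Lss and Idi1 were lower by smaller amounts and with wider spread. Lss, the gene for the ring-closing enzyme, measured 85.9, 91.4, 105, 92.6 and 87.5 CPM in WT cortex and 76.9, 82.1, 86.1, 66.2 and 65.9 CPM in WT hippocampus. In Ube3aOE mice it measured 84.6, 115, 94.5, 94.4 and 88.0 CPM in cortex and 68.0, 81.6, 83.8, 87.1 and 75.1 CPM in hippocampus. The tissues touched only at their edges, where the highest hippocampus libraries passed the lowest cortex ones, and the log2 fold change was -0.28 (SE 0.06, adjusted p = 0.00101). Idi1 averaged 8.59 ± 0.94 (WT) and 8.83 ± 0.86 CPM (Ube3aOE) in cortex and 7.34 ± 1.15 and 7.08 ± 0.97 CPM in hippocampus (SD, n = 5 each). Its log2 fold change was -0.27 (SE 0.08, 95% interval -0.45 to -0.10, adjusted p = 0.0104), and the tissues overlapped.

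Sqle and Cyp51 differed less. Sqle, whose product adds the oxygen to squalene, ranged from 247 to 284 CPM over the cortex libraries and from 216 to 264 CPM over the hippocampus libraries. The 2 ranges overlapped, and its log2 fold change was -0.14 (SE 0.04, adjusted p = 0.00613), a change of -9.11%. Cyp51 measured 159, 146, 156, 154 and 154 CPM in WT cortex and 145, 149, 145, 129 and 141 CPM in WT hippocampus. In Ube3aOE mice it measured 158, 159.6, 158, 147 and 153 CPM in cortex and 136, 149, 154, 152 and 154 CPM in hippocampus. The tissues overlapped, most of all in Ube3aOE mice. Its log2 fold change of -0.09 (SE 0.03, adjusted p = 0.0382) lost the call when any of mice 1, 3, 4, 5, 6, 7 or 9 was left out, with adjusted p up to 0.113.

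Dhcr7 was the exception. It measured 109.9, 105, 106, 106 and 112 CPM in WT cortex and 112, 111, 117, 104 and 114 CPM in WT hippocampus. In Ube3aOE mice the values were 117, 109, 114, 112 and 114 CPM in cortex and 111, 105, 103, 111 and 108 CPM in hippocampus. All groups overlapped. The log2 fold change between tissues was -0.01 (SE 0.03, adjusted p = 0.796), and its 95% interval, -0.07 to 0.05, did not reach the intervals of Hmgcs1, Fdft1, Lss or Idi1. Differences between members in the size of the tissue effect were not tested.

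**Figure D1:**
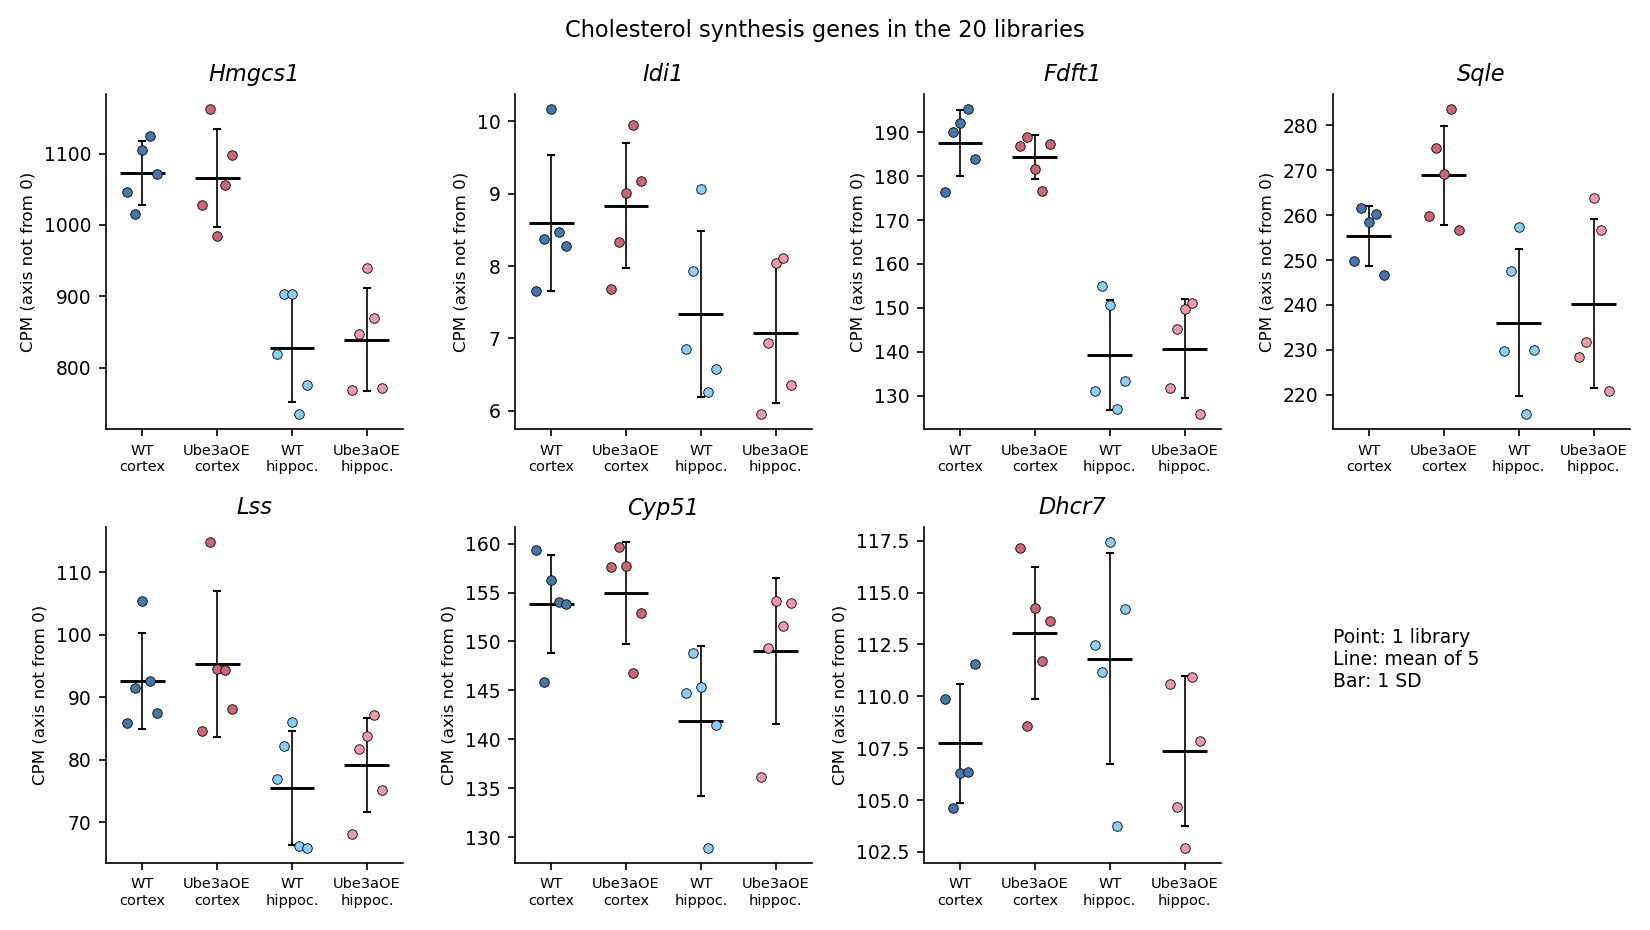
CPM of each gene (vertical axis, not starting at 0) in the 4 groups of 5 libraries. Points are libraries, lines are group means and bars are 1 SD. Hippocampus libraries of Hmgcs1 and Fdft1 lie below all cortex libraries, whereas those of Dhcr7 lie among them.

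The tissue difference was also read within each mouse. Hmgcs1, Idi1, Fdft1, Sqle and Lss were each lower in the hippocampus than in the cortex of 10 of 10 mice, a pattern found in 13.4% of all genes. Cyp51 was lower in 7 mice and Dhcr7 in 6. The log2 ratio of hippocampus to cortex within a mouse ran from -0.62 to -0.23 for Fdft1 and from -0.61 to -0.07 for Hmgcs1. For Sqle it ran from -0.27 to -0.01, so that in some mice the tissues were nearly level. For Dhcr7 it ran from -0.15 to 0.14. The highest ratios of Fdft1 (Ube3aOE mouse 9) and Hmgcs1 (Ube3aOE mouse 8) came from mice whose cortex libraries held the most hippocampus markers. The lowest ratios of Fdft1, Hmgcs1 and Sqle were those of WT mouse 4, whose hippocampus library held thalamus markers (273 CPM). The part of the dissection in these ranges was not tested.

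**Figure D2:**
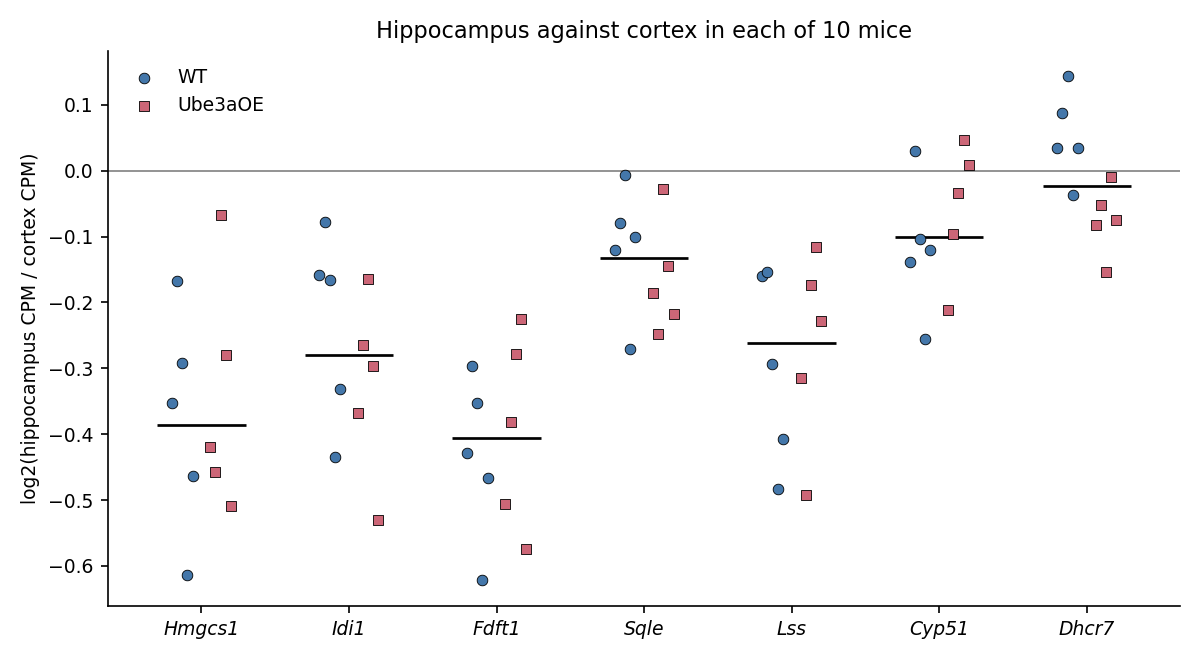
Log2 ratio of hippocampus CPM to cortex CPM (vertical axis) in each of the 10 mice, for each gene on the horizontal axis. Circles are WT mice, squares are Ube3aOE mice and lines are medians. Points of 5 genes all lie below 0, and those of Cyp51 and Dhcr7 lie on both sides.

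Within genotypes, where the tissues of the same 5 mice were compared without the mouse as a block, fewer members passed. In WT mice Hmgcs1 (log2 fold change -0.37, adjusted p = 0.000168), Fdft1 (-0.43, adjusted p = 1.51e-05) and Lss (-0.30, adjusted p = 0.0143) were called lower in hippocampus, as were 18.3% of all genes. In Ube3aOE mice, where 16.1% of all genes were called lower, Hmgcs1 (-0.34, adjusted p = 0.000518), Fdft1 (-0.39, adjusted p = 6.52e-05), Lss (-0.27, adjusted p = 0.0277), Idi1 (-0.32, adjusted p = 0.0448) and Sqle (-0.16, adjusted p = 0.0296) passed. For Idi1 the WT value was -0.23 (adjusted p = 0.145) and for Sqle -0.11 (adjusted p = 0.117). The test of the difference between these tissue effects is given with the interaction below.

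The tissue comparison was repeated without mice 4, 7, 9 and 10, whose hippocampus libraries held thalamus or choroid plexus markers above 200 CPM, a choice made after seeing the data. With the remaining 6 mice, Hmgcs1 (log2 fold change -0.27, adjusted p = 0.00511), Fdft1 (-0.38, adjusted p = 0.000328) and Lss (-0.24, adjusted p = 0.0423) were still called. Idi1 (-0.21, adjusted p = 0.234), Sqle (-0.08, adjusted p = 0.253) and Cyp51 (-0.10, adjusted p = 0.156) were not. Over all genes the number called fell from 7973 to 5237, and in the transport list described below it was 2 higher and 2 lower. Without mouse 2, all 6 were called.

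Cell markers differed between the tissues as well, in a comparison where 25.3% of all genes were called higher in hippocampus and 25.6% lower. Of 5 astrocyte markers, 4 were called higher in hippocampus, and their sum was 1041 to 1577 CPM there against 678 to 909 CPM in cortex. Of 4 markers of oligodendrocyte precursors, 3 were higher (274 to 385 against 243 to 329 CPM), and of 4 microglia markers, 3 were higher (66.1 to 111 against 56.0 to 93.6 CPM). Of 3 neuron markers, 2 were lower in hippocampus (1822 to 2297 against 2012 to 2556 CPM). The sums of the 6 oligodendrocyte markers, cells that use much cholesterol for myelin, overlapped (71.7 to 183 against 78.3 to 161 CPM), with 1 of 5 tested called lower and Mog near 0. The part of these cell types in the tissue difference was not tested.

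Other enzymes of the route were also lower in hippocampus. Of 12 other synthesis enzymes, 7 were called lower in hippocampus and none higher, against 25.6% and 25.3% of all genes. Their median log2 fold change was -0.23. With the mouse as a block, 1 was called higher: Lbr, which reduces a double bond of the sterol ring, had a log2 fold change of 0.13 at an adjusted p of 0.120 without the block and 0.0357 with it. Without mouse 7 its adjusted p was 0.0421. Acat2, whose product supplies acetoacetyl-CoA, averaged 87.5 CPM in hippocampus and 126 CPM in cortex (log2 fold change -0.52, SE 0.07, adjusted p = 1.35e-06), and its tissues did not overlap. Mvk, mevalonate kinase, averaged 60.2 and 81.4 CPM (-0.44, SE 0.06, adjusted p = 1.98e-06). Mvd, mevalonate diphosphate decarboxylase, averaged 76.2 and 94.6 CPM (-0.31, SE 0.05, adjusted p = 7.50e-05). The 5 enzymes that were not called included Msmo1 (-0.05), Sc5d (0.02) and Ebp (0.08), which act on sterol rings after lanosterol, as Cyp51 and Dhcr7 do. Nsdhl (-0.23) and Tm7sf2 (-0.25), which act there too, were called lower. Msmo1, Sc5d, Ebp, Nsdhl and Tm7sf2 were chosen after their values were seen.

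**Figure D3:**
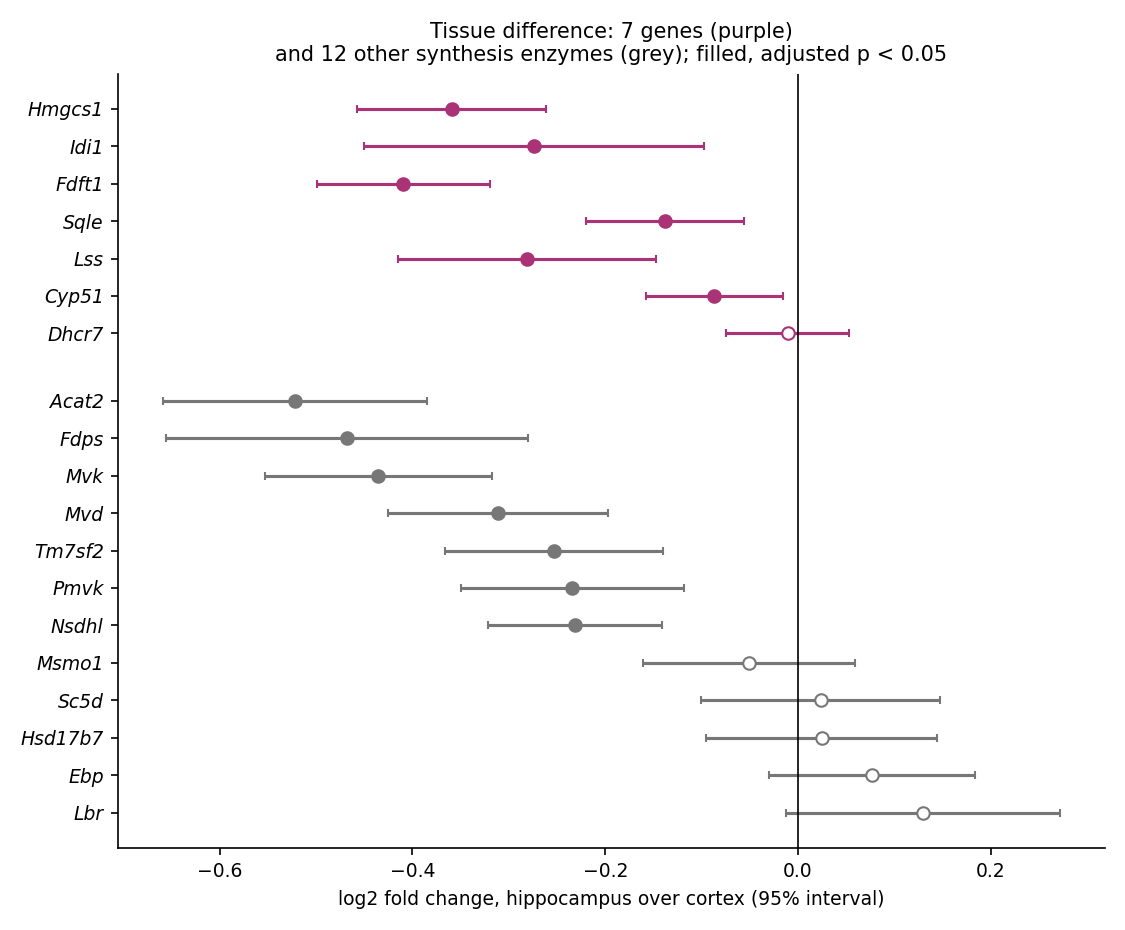
Log2 fold change of hippocampus over cortex (horizontal axis) with its 95% interval, for the 7 genes in purple and 12 other synthesis enzymes in grey. Filled points passed an adjusted p of 0.05. Of the 7, 6 are filled, and of the 12, 7, all to the left of 0.

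Of 10 genes that sense sterols, 4 were called higher in hippocampus and 1 lower, against 25.3% and 25.6% of all genes. Their median log2 fold change was 0.00. Srebf1, the gene for the sister factor of SREBP-2 that favours fatty acid synthesis, averaged 43.0 CPM in hippocampus and 33.6 CPM in cortex (log2 fold change 0.36, SE 0.07, adjusted p = 0.000247). Insig2, which helps hold the factors back, averaged 29.3 and 23.0 CPM (0.35, SE 0.07, adjusted p = 0.000384), and Mbtps1, a protease that cleaves them, averaged 101 and 86.7 CPM (0.22, SE 0.05, adjusted p = 0.000500). The gene called lower was Nr1h2, a sterol-activated nuclear receptor (-0.16, adjusted p = 0.0497), which lost its call under other normalization, without the low-count filter and without any 1 mouse other than mice 5 and 8. With the mouse as a block 2 were called lower, since Insig1, the other Insig gene, passed as well (-0.15, adjusted p = 0.00396, against 0.0905 without the block).

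Genes of cholesterol transport and turnover went both ways, with 4 of 13 called higher and 5 lower in hippocampus. Of all genes, 25.3% were called higher and 25.6% lower. The median log2 fold change of the 13 was -0.10. Cyp46a1, the neuronal hydroxylase that lets cholesterol leave the brain, averaged 65.3 CPM in hippocampus and was lower there than in cortex in 10 of 10 mice (log2 fold change -0.62, SE 0.08, adjusted p = 2.23e-06). Vldlr, a lipoprotein and reelin receptor, averaged 82.1 and 117 CPM (-0.51, SE 0.08, adjusted p = 1.78e-05), and Lrp8, another reelin receptor, averaged 193 and 211 CPM (-0.12, SE 0.03, adjusted p = 0.00436). Higher in hippocampus were Npc1 (log2 fold change 0.29, adjusted p = 0.000114) and Npc2 (0.29, adjusted p = 0.000235), which move cholesterol out of lysosomes, and Soat1 (0.32, adjusted p = 0.000904), which esterifies it. Without mice 4, 7, 9 and 10, 2 were called in each direction, and Lrp8 (adjusted p = 0.119) and Soat1 (0.0749) were not among them.

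Whether extra Ube3a altered these genes was asked in each tissue. None of the 7 was called in cortex or in hippocampus. The share called among all genes was 0.00669% in cortex (1 of 14947, Ube3a itself) and 0.00657% in hippocampus (1 of 15220, again Ube3a), so few calls were made anywhere. At an unadjusted p under 0.05 there were 663 genes in cortex and 1098 in hippocampus, and 0 members in either. DESeq2 also called 0 members in each tissue.

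In cortex the log2 fold changes of the 7 genes ran from -0.02 for Fdft1 to 0.08 for Sqle. Sqle averaged 269 ± 11.1 CPM in Ube3aOE and 255 ± 6.69 CPM in WT (SD, n = 5 each), a log2 fold change of 0.08 with a 95% interval of -0.02 to 0.18 and an adjusted p of 0.960. Dhcr7 averaged 113 ± 3.18 and 108 ± 2.86 CPM, a log2 fold change of 0.07 with an interval of -0.02 to 0.17. For both genes the groups overlapped. Hmgcs1 averaged 1066 ± 68.0 CPM in Ube3aOE and 1072 ± 44.5 CPM in WT.

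In hippocampus the range was -0.06 for Dhcr7 to 0.07 for Cyp51, and the smallest adjusted p was 0.750. Cyp51 averaged 149 ± 7.46 CPM in Ube3aOE and 142 ± 7.68 CPM in WT (SD, n = 5 each), with a 95% interval of -0.05 to 0.19 on the log2 scale. Dhcr7 averaged 107 ± 3.61 and 112 ± 5.08 CPM, with an interval of -0.17 to 0.05. Hmgcs1 averaged 839 ± 71.9 and 828 ± 75.4 CPM. No member had groups that did not overlap in either tissue, which occurred in 0.676% of all genes in cortex and 1.12% in hippocampus.

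The intervals bound what could have been missed. All 7 lay within 0.5 of 0 on the log2 scale in both tissues, as did those of 73.8% of all genes in cortex and 69.9% in hippocampus. The widest was that of Idi1 in hippocampus, from -0.35 to 0.24, and the narrowest covered -0.02 to 0.17, for Dhcr7 in cortex. Differences of a few percent were not detectable with 5 mice a group.

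**Figure D4:**
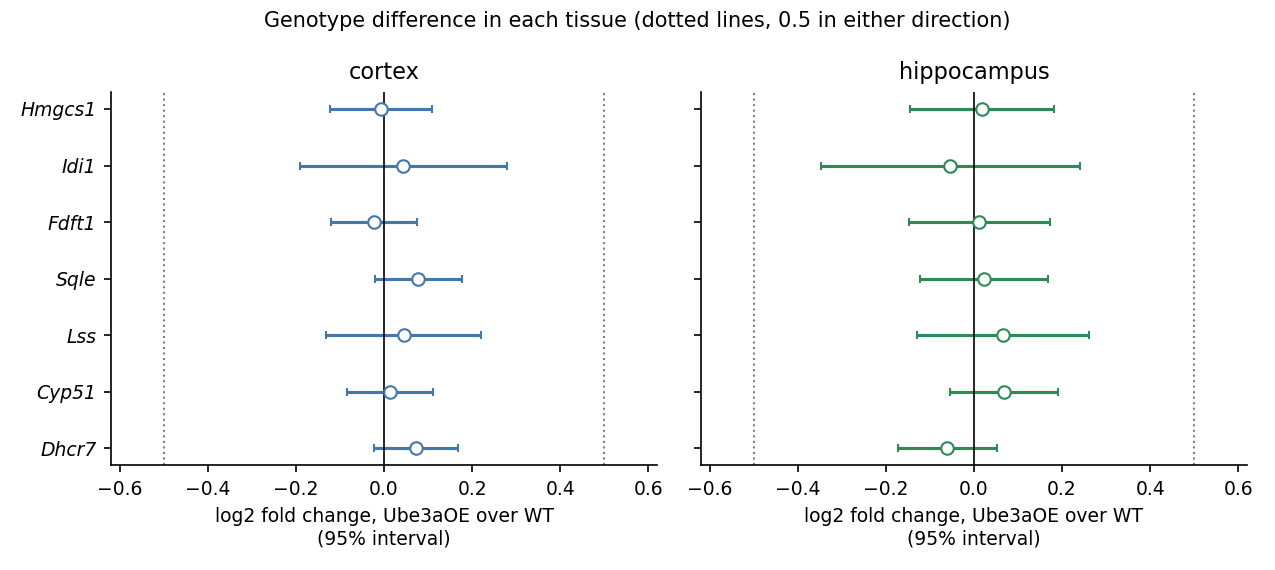
Log2 fold change of Ube3aOE over WT (horizontal axis) with its 95% interval for the 7 genes, in cortex and in hippocampus. All intervals cross 0 and stay inside the dotted lines at 0.5 in either direction.

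The remaining genes of the pathway gave no call for genotype in either tissue: 0 of 12 synthesis enzymes, 0 of 10 sterol-sensing genes and 0 of 13 transport genes. Those with the smallest p in cortex were Pmvk (log2 fold change -0.11) and Hsd17b7 (0.11) among the enzymes, Srebf2 (0.11) and Mbtps2 (0.09) among the sensors, and Abca1 (0.29) and Npc1 (0.09) among the transport genes, all at an adjusted p of 0.960. In hippocampus they were Mvk (0.13) and Fdps (-0.11), Srebf2 (0.09) and Srebf1 (0.16), and Lrp8 (0.10) and Stard4 (0.16), with adjusted p between 0.668 and 0.818. Srebf2, which encodes SREBP-2, was thus first among the sensors in both tissues without passing the test in either.

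The interaction asked whether the genotype difference was unlike between tissues. No member was called, nor was any of the 15661 genes (0% of all). DESeq2 likewise called none. Of all genes, 590 (3.77%) had an unadjusted p under 0.05. Among the members, Dhcr7 came closest: its log2 genotype difference was 0.07 in cortex and -0.06 in hippocampus, an interaction of -0.13 (95% interval -0.26 to -0.000462, adjusted p = 0.997), and it was among the 590. In 5 of 5 Ube3aOE mice Dhcr7 was lower in hippocampus than in cortex, and in 4 of 5 WT mice it was higher. This split is given only for the member with the smallest p, and its share among all genes was not counted. The other 6 had interactions from -0.09 (Idi1) to 0.06 (Cyp51). In the other lists the smallest p values belonged to Ebp (-0.16) and Pmvk (0.13), Mbtps2 (-0.09) and Srebf1 (0.12), and Npc2 (-0.18) and Cyp46a1 (0.19), each at an adjusted p of 0.997.

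The members also varied between mice of 1 group, and by unequal amounts. The SD of log2 CPM between mice was 0.05 for Dhcr7 and 0.06 for Cyp51, values below those of all but 0.498% and 2.59% of genes. It was 0.08 for Sqle, 0.09 for Fdft1, 0.11 for Hmgcs1, 0.15 for Lss and 0.18 for Idi1, against a median of 0.18 over all genes. Counting error adds most to Idi1, the gene with the fewest counts, and less to genes with many. Dhcr7 and Cyp51 stood above 85.6% and 90.2% of genes in level, and the comparison of spread was not matched for level.

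After the mean of each group was taken out, most members rose and fell together over the 20 libraries. Each was correlated with the mean of the other 6: Pearson's r was 0.85 for Hmgcs1, 0.83 for Sqle, 0.81 for Fdft1, 0.79 for Idi1 and 0.79 for Lss. It was 0.53 for Cyp51 and 0.02 for Dhcr7, the genes that also differed least between tissues. For each member the 20 libraries pooled a lower r in cortex and a higher r in hippocampus. In that order, r was 0.51 and 0.95 for Hmgcs1, 0.40 and 0.92 for Sqle, and 0.33 and 0.89 for Fdft1. It was 0.29 and 0.96 for Idi1, and 0.71 and 0.92 for Lss. For Cyp51 r was -0.07 in cortex and 0.70 in hippocampus, and for Dhcr7 -0.73 in cortex and 0.25 in hippocampus. In cortex Dhcr7 ran opposite to Sqle (r = -0.77) and to Lss (-0.77) most closely. Of the 21 pairs of members, 19 had a positive r (median 0.58). These are descriptions over libraries that share mice and dissections, and no p is given.

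The shared variation lay mainly in the hippocampus. Over its 10 libraries the median r of the 21 pairs was 0.76 and all were positive, whereas over the 10 cortex libraries the median was 0.13 and 14 were positive. In hippocampus WT mouse 4 was the lowest of its group for 6 of the 7 genes and below the group mean for all. WT mouse 3 lay above the mean for 7 and Ube3aOE mouse 9 for 7, while Ube3aOE mouse 6 was lowest for 4. Thalamus markers were raised in WT mouse 4 (273 CPM), choroid plexus and striatum markers in Ube3aOE mouse 9, and neither in WT mouse 3 or Ube3aOE mouse 6, whose thalamus and choroid plexus sums were 30.2 CPM or less. The summed cortex markers in the hippocampus libraries followed the same order in large part. In WT they were 90.6 CPM in mouse 2 and 80.2 CPM in mouse 3, where the members lay on average 0.10 and 0.14 log2 units above the group mean, and 59.5 CPM in mouse 4, where they lay lowest (-0.15). In WT mice 1 and 5 the sums were 68.2 and 69.6 CPM, with the members at -0.02 and -0.07. In Ube3aOE the sums were 75.9 CPM in mouse 8 and 74.2 CPM in mouse 9 (0.10 for both). They were 74.9 CPM in mouse 7 (0.00), 68.0 CPM in mouse 6 (-0.12) and 52.7 CPM in mouse 10 (-0.08). The summed hippocampus markers ran the other way in some libraries. They were the lowest of their groups in WT mouse 2 (134 CPM) and Ube3aOE mouse 9 (183 CPM). Ube3aOE mice 6 and 10, at 260 and 273 CPM, were the highest of theirs. The sums were 234, 209, 223 and 270 CPM in WT mice 1, 3, 4 and 5. Ube3aOE mice 7 and 8 were at 201 and 202 CPM. The part of the dissection in this pattern was not tested.

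**Figure D5:**
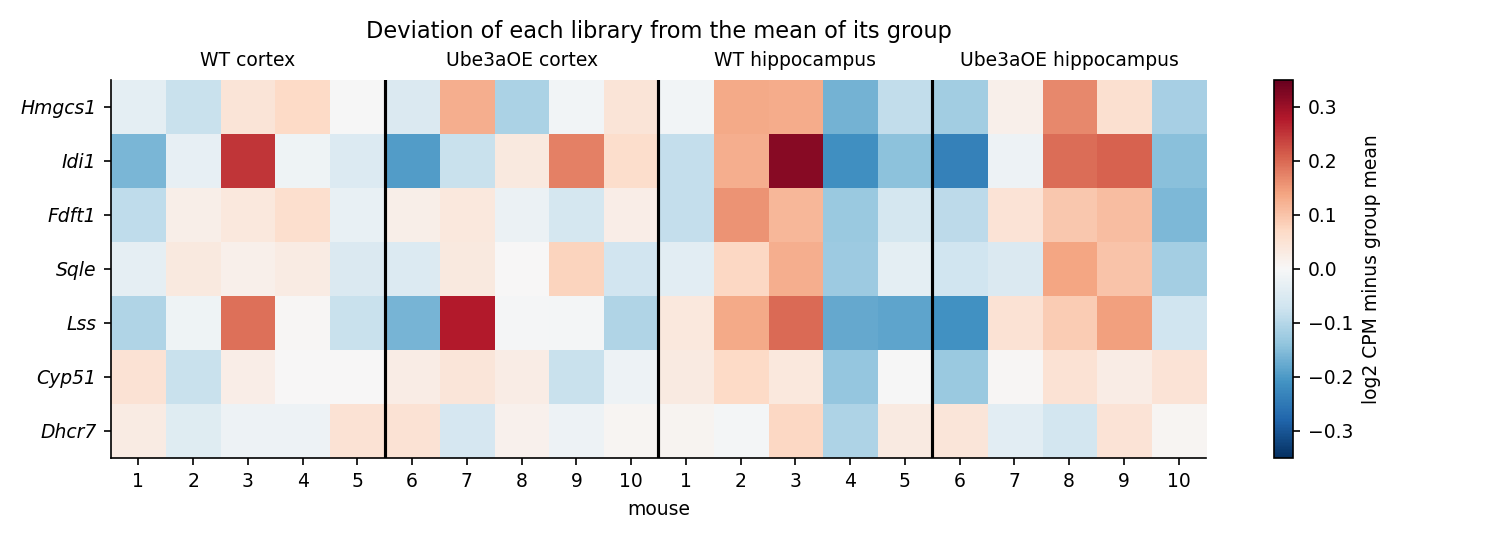
Log2 CPM of each gene (rows) in each library (columns, by mouse within the 4 groups) minus the mean of its group, with red above and blue below. In hippocampus the columns of WT mice 2 and 3 and Ube3aOE mice 8 and 9 are mostly red. Those of WT mice 4 and 5 and Ube3aOE mice 6 and 10 are mostly blue, while the cortex columns are paler and mixed.

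A mouse with a high level in one tissue did not always have it in the other. Across the 10 mice, with group means taken out, Pearson's r between cortex and hippocampus was 0.74 for Idi1, 0.54 for Lss and 0.51 for Sqle. It was 0.29 for Dhcr7, -0.07 for Fdft1, -0.27 for Cyp51 and -0.40 for Hmgcs1. Without the 2 mice farthest from the median in cortex, chosen for each gene, r was 0.38 for Idi1, 0.52 for Lss and 0.25 for Sqle. The values for Idi1 and Sqle thus rested on those mice in large part. For the others r was then 0.04 for Dhcr7, -0.16 for Fdft1, 0.10 for Cyp51 and -0.36 for Hmgcs1.

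Of the other genes reported here, the one whose variation between mice was most like the mean of the members was Nr2c2, a nuclear receptor, with r = 0.86 over the 20 libraries. It was followed by Maoa (0.86), monoamine oxidase, and Mapre1 (0.85), a microtubule end-binding protein. D10Wsu102e (0.85), Atxn7l3b (0.85), Rab2a (0.84), Lin7c (0.84), Pkia (0.84), Slc6a6 (0.83), the taurine transporter, and Zfp711 (0.83) completed the 10 highest of these 15652 genes. D10Wsu102e shares 81 of the 50-base stretches of Dhcr7. This order changed with the libraries: 4 of the 10 stayed among the highest without mouse 2, 3 in hippocampus alone and 0 in cortex alone. Over the lists, the median r was 0.43 for the 12 other enzymes, with Acat2 (0.81) and Nsdhl (0.79) among the 100 highest, -0.01 for the sterol-sensing genes, -0.14 for the transport genes and -0.01 for all other genes.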

How the data were processed

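Counts of mRNA reads per gene from 20 stranded TruSeq libraries were deposited by the authors as whole numbers without normalization. The submitters' processing notes name HISAT2 2.1.0, HTSeq 0.11.2 and GRCm38 (mm10). The annotation release and strand setting are not given in the sources used here. The 5 lines of reads with no gene (18.8% to 30.3% of a library) were left out.

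Tests used the robust quasi-likelihood method of edgeR 4.0.16 under R 4.3.3 (filterByExpr, TMM factors) over all genes, with Benjamini-Hochberg adjustment and calls at an adjusted p under 0.05. Genotypes were compared within each tissue over 10 libraries, and tissues and the interaction over all 20. Alternatives were DESeq2 1.42.0 (Wald test and size factors), no low-count filter, labelled sex, all libraries in 1 fit, a mouse block and leaving out each mouse. The libraries of a mouse share an animal. Their deviations from the group means correlated with a median r of 0.22 (-0.04 to 0.25), above 0.1 in 9 of 10 mice. The exception was WT mouse 4 (r = -0.04), so this check gave no sign that its 2 libraries share an animal. For likeness, log2 CPM (prior count 2) was used. The test was checked on simulated data in which libraries were drawn independently, so the tie between libraries of a mouse was not part of that check. Gene positions, transcript lengths and shared 50-base stretches came from GENCODE M21, which held 98.9% of the 47729 IDs.

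The members and lists were chosen with earlier results of these data known. The text names all 7 members, up to 3 called genes per list and direction by smallest p (the 2 with the smallest p where none was called), and the 10 genes most like the members. Genes named outside this rule were chosen after their values were seen. Further genes of the pathway are not reported here.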

Additional observations from a re-analysis of the deposited data

Results flagged for a closer look

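Cyp51 in the hippocampus of Ube3aOE mouse 6 stood apart from its group, at 136 CPM (2285 counts), while the nearest of the other 4 libraries was at 149 CPM. The gap made up 0.73 of the group's range, above the 95% critical value of 0.71 for 5 samples. It was the only such value in 28 searches (7 genes in 4 groups), and chance gives about 1 in 20.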

How the results depend on the processing

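The number of members called stayed at 0 for genotype in cortex, genotype in hippocampus and the interaction under each alternative run, and at 5 or 6 of 7 for the tissue difference, apart from 3 without mice 4, 7, 9 and 10, a choice made after seeing the data. Leaving out 1 mouse gave 5 to 6. Without the low-count filter it was 5, since Cyp51 was lost (adjusted p = 0.147). The mouse as replicate block changed no member's call, though it added Lbr, Insig1, Abca1 and Abcg4 to the calls of the other lists: it left 6 for the tissue difference, with Cyp51 at an adjusted p of 0.0442, and 0 for the interaction.

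Over all genes, DESeq2 called 5 for genotype in cortex in place of 1, the sex covariate 2 in hippocampus in place of 1, and leaving out mice 4, 7, 9 and 10 gave 5237 between tissues in place of 7973. Of the 10 genes most like the members, 0 remained in cortex alone, 3 in hippocampus alone and 4 without mouse 2.

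Of 441 member values under alternatives, 35 changed sign, each 0.042 or less in size, with an adjusted p of 0.941 or more. With labelled sex as a covariate the genotype difference became 0.0087 for Hmgcs1 in cortex, and -0.0093 for Hmgcs1, -0.016 for Fdft1 and -0.0069 for Sqle in hippocampus. Without mice 4, 7, 9 and 10 it became -0.020 for Fdft1, -0.037 for Lss and -0.0029 for Cyp51 in hippocampus, and the interaction became -0.0068 for Fdft1 and -0.036 for Cyp51. With each mouse left out in turn, the cortex values ran from -0.038 to 0.017 for Hmgcs1, -0.0062 to 0.11 for Idi1, -0.030 to 0.096 for Lss and -0.011 to 0.028 for Cyp51. The hippocampus values ran from -0.022 to 0.057 for Hmgcs1, -0.11 to 0.035 for Idi1, -0.020 to 0.058 for Fdft1 and -0.0075 to 0.059 for Sqle. The interaction ran from -0.042 to 0.080 for Hmgcs1, -0.0098 to 0.083 for Fdft1 and -0.020 to 0.092 for Lss, and the tissue difference of Dhcr7 from -0.022 to 0.0014. The causes were not tested. With 5 mice a group, depth limits Idi1 most, at 100 to 163 counts a library.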
